A study of Sicyos edulis with 9 samples.

Results

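Dof transcription factors were followed in chayote (Sicyos edulis) fruits during storage, through 4 unigenes of the 57814 that were assembled and measured. TRINITY_DN10329_c0_g2 carries the identifier FSG0218970 in the study's list of transcription factors, and TRINITY_DN10329_c0_g1 is its neighbour in the Trinity assembly and is listed as FSG0150540. TRINITY_DN10628_c0_g1 and TRINITY_DN7691_c1_g1 stand under a single identifier, FSG0107630. The 4 were taken by name, and they belong to the 14 unigenes that the study lists as Dof. Fruit RNA of wild-type plants was sequenced in 9 libraries, of which 3 biological replicates came from fruits picked at optimal harvest (S1), 3 from fruits that had then been stored for 15 days (S2) and 3 from fruits stored for 30 days (S3). All fruits came from plants grown in an experimental field from fruits bought commercially, and the storage temperature is given differently in the methods and in the series text. Levels are FPKM, fragments per length of the unigene and per mapped fragments of the library, so they can be compared between unigenes of different length. A whole fruit holds many cell types, and fewer cells of a type cannot be told apart from less RNA per cell.

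Dof proteins are transcription factors of plants with a single zinc finger, which binds DNA sites around an AAAG core. In Arabidopsis, members of the family act in photoperiodic flowering, in vascular development and on phenylpropanoid genes. In cereals, a Dof protein of the endosperm activates genes of seed storage proteins, and other Dof proteins act on genes of carbon metabolism. The study listed Dof beside MYB, bHLH, WRKY and bZIP proteins as candidate regulators of flavonoid synthesis. No role is annotated for the chayote unigenes themselves, and no unigene sequence was used here, so the Dof label rests on the study's list.

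The FPKM totals of the libraries lay between 801066 and 914583, and the depth estimated from the FPKM values lay between 0.731 and 1.29 times that of S1 replicate 2. The highest estimate was that of S2 replicate 1, which the study's mapped reads put above S1 replicate 2 by a smaller margin. Over 30201 unigenes with at least 1 FPKM in at least 3 libraries, limma with Benjamini-Hochberg adjustment put S2 above S1 for 2186 unigenes and below it for 3220 at an adjusted p under 0.05. The split became 2743 higher and 2590 lower after quantile normalization. More unigenes were called when S3 was compared, where 7043 stood above and 7010 below S2, and 6677 stood above and 7669 below S1. All 4 Dof unigenes passed the filter, each of them only through the stage in which it was high, so their counts are a description. In S2 vs. S1, 0 of the 4 were called higher, as were 0 at an unadjusted p under 0.05, and 2 were called lower, beside 7.24% and 10.7% of all unigenes tested. In S3 vs. S2, 2 were called higher and 0 lower, with 0 lower also at an unadjusted p under 0.05, beside 23.3% and 23.2%. In S3 vs. S1, 2 were called higher and 2 lower, beside 22.1% and 25.4%. Thus TRINITY_DN10329_c0_g1 and TRINITY_DN7691_c1_g1 were highest at harvest and low from S2 on, and TRINITY_DN10329_c0_g2 and TRINITY_DN10628_c0_g1 were highest at S3.

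**Figure D1:**
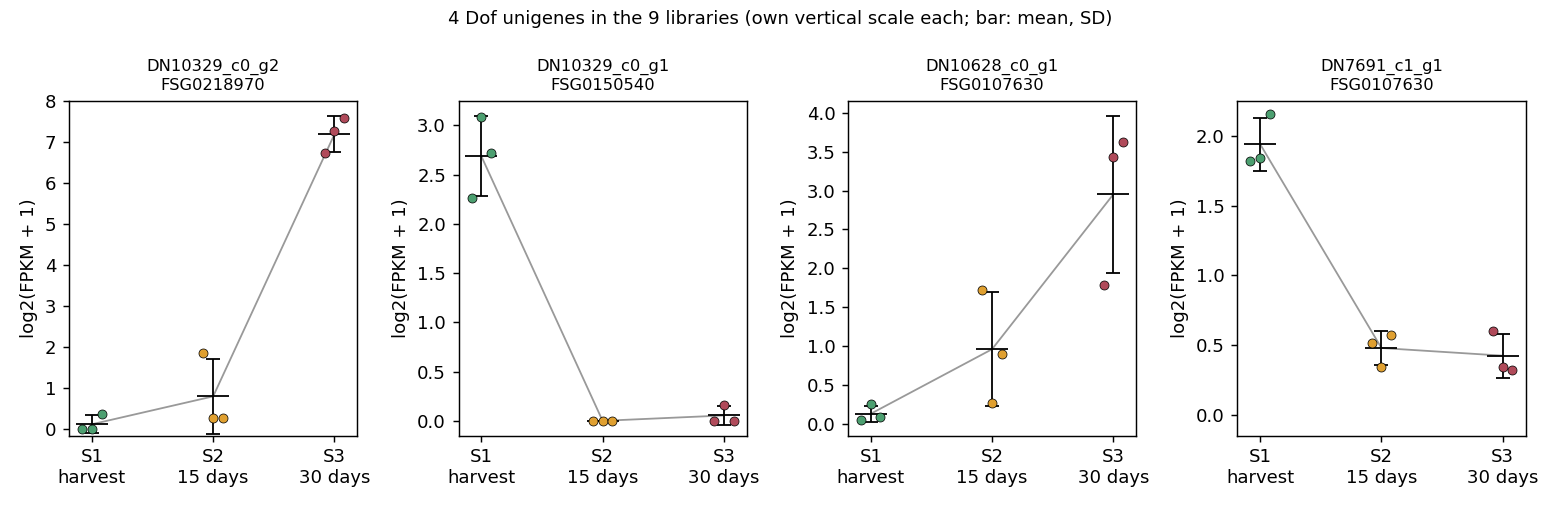
Level of the 4 Dof unigenes as log2(FPKM + 1) (vertical axis, own scale in each panel) at S1, S2 and S3 (horizontal axis); points are the 3 libraries of a stage, and bars give their mean ± SD. The 2 unigenes named FSG0107630 run in opposite directions, and TRINITY_DN10329_c0_g2 stays below 3 FPKM until S2 and is above 100 FPKM in every S3 library.

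TRINITY_DN10329_c0_g2 was nearly absent until the middle of storage and became an abundant transcript by its end. It was listed at 0, 0 and 0.3 FPKM in the S1 libraries, at 2.65, 0.21 and 0.21 FPKM in the S2 libraries, and at 104.6, 153.64 and 190.25 FPKM in the S3 libraries. Every S3 library thus lay far above every earlier one, whereas S2 and S1 overlapped and the only S2 value above 1 FPKM was that of replicate 1. The mean was 0.1 ± 0.173 FPKM at S1, 1.02 ± 1.41 FPKM at S2 and 149.5 ± 43.0 FPKM at S3 (SD, n = 3 each). On the scale of log2(FPKM + 1), which understates the change of low unigenes, S3 was higher than S2 by 6.39 (SE 0.43, limma, Benjamini-Hochberg adjusted p = 1.49e-05) and higher than S1 by 7.07 (SE 0.43, adjusted p = 7.95e-06). Among the 30201 unigenes tested, this was the 34th largest rise in S3 vs. S2 and the 5th largest in S3 vs. S1. The S2 vs. S1 difference was 0.68 (95% interval -0.30 to 1.66, limma adjusted p = 0.335) and was 0.15 without S2 replicate 1. The size of the rise depends on the pseudocount because S1 was near 0, and with 0.01 in place of 1 it was 12.2 in S3 vs. S1 and 8.17 in S3 vs. S2.

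The rise set this unigene apart by level as well as by fold. In the S3 libraries 97.8%, 98.6% and 98.9% of the 57814 unigenes had a lower FPKM. The share of TRINITY_DN10329_c0_g2 in the summed FPKM of the 14 listed Dof unigenes was at most 0.147% at S1 and at most 1.03% at S2, and in S3 it reached 32.4%, 44.4% and 50.0%. The Dof sum itself was 185.8 ± 18.6 FPKM at S1, 206.2 ± 45.1 FPKM at S2 and 349.8 ± 28.9 FPKM at S3 (SD, n = 3 each). The S3 sums (322.9 to 380.4 FPKM) did not overlap with those of S2 (174.6 to 257.8 FPKM) or S1 (167.3 to 204.5 FPKM). Without TRINITY_DN10329_c0_g2 they did, as the other 13 unigenes had sums between 167.3 and 204.2 FPKM at S1, between 174.4 and 255.1 FPKM at S2, and between 190.2 and 218.3 FPKM at S3. Thus without this unigene the Dof sum at S3 did not stand apart. The sum of the other 13 holds changes in both directions. TRINITY_DN773_c0_g1 and TRINITY_DN1919_c0_g1 rose from means of 12.1 and 5.89 FPKM at S2 to 62.6 and 47.5 FPKM at S3. Among those that fell was TRINITY_DN2629_c0_g2, from 59.2 to 6.80 FPKM.

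**Figure D2:**
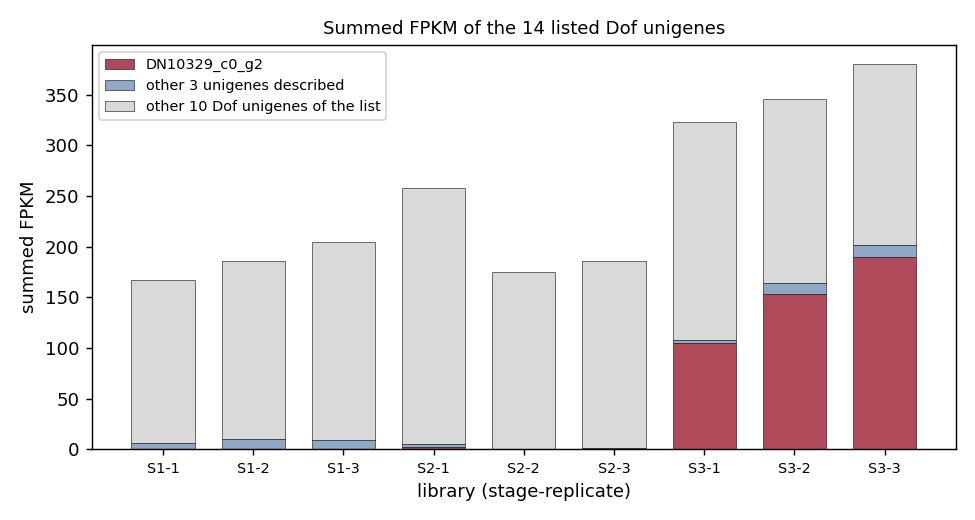
Summed FPKM of the 14 listed Dof unigenes (vertical axis) in each library (horizontal axis, stage and replicate), split into TRINITY_DN10329_c0_g2, the other 3 unigenes described and the other 10 of the list. TRINITY_DN10329_c0_g2 makes up 32.4% to 50.0% of the bars of S3 and at most 1.03% of those of S1 and S2.

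TRINITY_DN10329_c0_g1 showed the reverse course. It had 3.81, 7.46 and 5.57 FPKM in the S1 libraries (5.61 ± 1.83, SD, n = 3), was listed at 0 in all 3 S2 libraries, and was listed at 0, 0.12 and 0 FPKM in the S3 libraries. The S1 libraries stood clear of all others, and S3 overlapped with S2. S2 was lower than S1 (limma, Benjamini-Hochberg adjusted p = 4.59e-04), for which no fold is given because every S2 library was listed at 0, and S3 was lower than S1 by 2.63 on the scale of log2(FPKM + 1) (SE 0.24, adjusted p = 6.52e-05). The size of the S3 vs. S1 difference is set by the pseudocount, as it was -5.41 with 0.1 and -7.85 with 0.01 in place of 1. The S3 vs. S2 difference was 0.05 (95% interval -0.49 to 0.60, limma adjusted p = 0.873).

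The stage of this peak depends on which table is read. The study's list of transcription factors holds the same 9 values for TRINITY_DN10329_c0_g1 with those of S1 and S2 exchanged, while the values of the other 13 Dof unigenes stand under the same stages in the list and in the files. No other unigene of the files holds the 9 values of any of the 4 described, under any order of the stages (0 found). The stages of the files are used throughout. With the exchange, TRINITY_DN10329_c0_g1 would be high in S2 alone, so its low level at S3 and its difference from TRINITY_DN10329_c0_g2 at that stage stay as they are, and its level before S3 does not.

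Trinity names give a DN number, a component (c) and a gene (g), and c0_g1 and c0_g2 are parts of a single component. Such unigenes can share sequence, and how reads that match several of them were counted is not given in the sources used here, so reads may have been divided between them. The component has a further unigene, TRINITY_DN10329_c0_g3, which is absent from the Dof list. It had 0.39, 0.48 and 0.58 FPKM in S1, 6.21, 4.46 and 4.66 FPKM in S2, and 0.04, 0 and 0.07 FPKM in S3. It was thus highest at S2, with no overlap between the stages next to each other. This unigene too passed the filter only through the stage in which it was high, so its calls are a description. The S2 vs. S1 difference was 2.03 on the scale of log2(FPKM + 1) (SE 0.19, limma adjusted p = 5.56e-04), and that of S3 vs. S2 was -2.55 (SE 0.19, adjusted p = 2.76e-05). Each of the 3 unigenes of the component therefore had its high level at a different stage, c0_g1 at S1, c0_g3 at S2 and c0_g2 at S3, under the stage labels of the files.

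**Figure D3:**
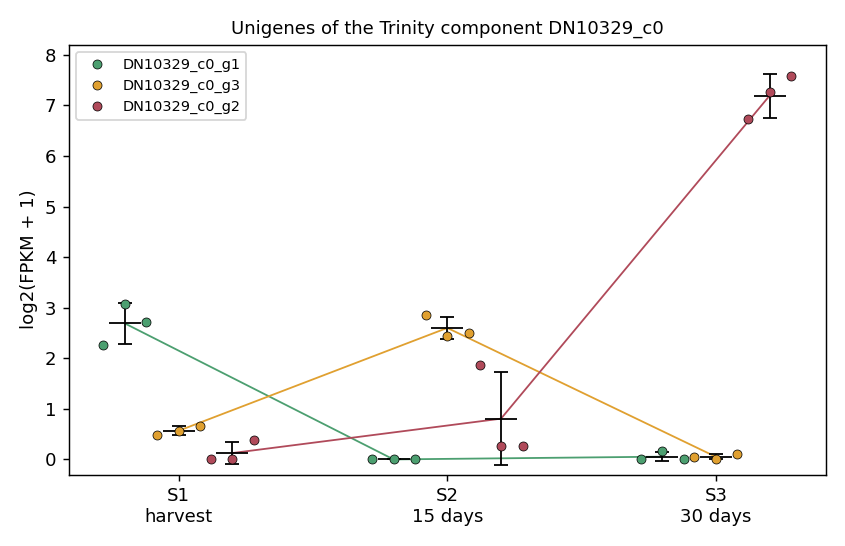
Level as log2(FPKM + 1) (vertical axis) of the 3 unigenes of the Trinity component DN10329_c0 at S1, S2 and S3 (horizontal axis); points are libraries, bars give mean ± SD over 3 libraries, and lines join the means. The highest stage is S1 for c0_g1, S2 for c0_g3 and S3 for c0_g2, whose level at S3 (149.5 FPKM) exceeds the peaks of the other unigenes (5.61 and 5.11 FPKM).

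The unequal courses of c0_g2 and c0_g1 are described, with no test because the pair was chosen for them, by their difference on the scale of log2(FPKM + 1) within each library. The difference, c0_g2 minus c0_g1, was -2.56 ± 0.45 at S1, 0.81 ± 0.92 at S2 and 7.14 ± 0.43 at S3 (SD, n = 3 each). The stages did not overlap, and most of the difference at S3 was the level of c0_g2. Both were above 0 in only 2 of the 9 libraries, S1 replicate 3 and S3 replicate 2, and c0_g1 had 0%, 0.078% and 0% of the summed FPKM of the pair in the S3 libraries, and 100%, 100% and 94.9% in the S1 libraries.

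The number DN10329 is shared by 6 unigenes of several components. A further Dof of the list, TRINITY_DN10329_c2_g1, has this number but lies in another component, and it fell at both steps. Its mean was 33.6 ± 4.64 FPKM at S1, 21.0 ± 1.59 FPKM at S2 and 8.73 ± 0.458 FPKM at S3 (SD, n = 3 each). S2 was lower than S1 with a difference of -0.65 on the log2 scale (SE 0.12, limma adjusted p = 0.00853), and S3 was lower than S2 with a difference of -1.18 (SE 0.12, adjusted p = 1.26e-04). Up to S2 it was the main listed Dof unigene of this DN number by FPKM, and at S3 TRINITY_DN10329_c0_g2 stood above it in all 3 libraries. The remaining pair, neither of them listed as Dof, showed no such switch. TRINITY_DN10329_c1_g2 had means of 32.3, 35.5 and 18.5 FPKM at S1, S2 and S3, with S3 lower than S2 (limma adjusted p = 0.0092), and TRINITY_DN10329_c1_g3 had means of 0.91, 1.27 and 0.223 FPKM, also with S3 lower than S2 (adjusted p = 0.0268).

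TRINITY_DN10628_c0_g1, under FSG0107630, rose late and unevenly. It had 0.04, 0.19 and 0.06 FPKM in the S1 libraries, 2.3, 0.2 and 0.86 FPKM in the S2 libraries, and 2.46, 9.81 and 11.36 FPKM in the S3 libraries. The stages did not overlap, but by a narrow margin at both steps, since the lowest S2 value was just above the highest of S1 and the lowest S3 value just above the highest of S2. The means were 0.0967 ± 0.0815 FPKM at S1, 1.12 ± 1.07 FPKM at S2 and 7.88 ± 4.76 FPKM at S3 (SD, n = 3 each). S3 was higher than S1 by 2.82 on the scale of log2(FPKM + 1) (SE 0.52, limma, Benjamini-Hochberg adjusted p = 0.0024) and higher than S2 by 1.99 (SE 0.52, adjusted p = 0.0133). With pseudocounts of 0.1 and 0.01 these differences were 5.15 and 6.20 in S3 vs. S1, and 2.91 and 3.12 in S3 vs. S2. The call in S3 vs. S2 depended on single libraries, as it was lost without S3 replicate 2 (difference 1.75, limma adjusted p = 0.0517) and stood just under the threshold without S3 replicate 3 (1.65, adjusted p = 0.047) or S2 replicate 2 (1.64, adjusted p = 0.0492). The S2 vs. S1 difference was 0.83 (95% interval -0.36 to 2.02, limma adjusted p = 0.334) and was 0.45 without S2 replicate 1.

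The coefficient of variation between replicates of this unigene was 95.9% at S2 and 60.4% at S3. That of TRINITY_DN10329_c0_g2, with a similar mean at S2, was 138% at S2 and 28.8% at S3. For both, S2 replicate 1 was the library in which the level was highest before S3.

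TRINITY_DN7691_c1_g1, the other unigene under FSG0107630, fell early and then stayed low. It had 2.53, 2.59 and 3.47 FPKM in the S1 libraries, 0.43, 0.27 and 0.49 FPKM in the S2 libraries, and 0.52, 0.27 and 0.25 FPKM in the S3 libraries. All S1 values lay above all later ones, and S3 and S2 overlapped. The means were 2.86 ± 0.526 FPKM at S1, 0.397 ± 0.114 FPKM at S2 and 0.347 ± 0.150 FPKM at S3 (SD, n = 3 each). S2 was lower than S1 with a difference of -1.46 on the scale of log2(FPKM + 1) (SE 0.20, limma, Benjamini-Hochberg adjusted p = 0.0026), and S3 was lower than S1 with a difference of -1.52 (SE 0.20, adjusted p = 4.74e-04). The S3 vs. S2 difference was -0.06 (95% interval -0.52 to 0.41, limma adjusted p = 0.847). With a pseudocount of 0.01 the S2 vs. S1 difference was -2.85 and the S3 vs. S1 difference -3.07.

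Under FSG0107630 the main unigene therefore changed during storage. The share of TRINITY_DN10628_c0_g1 in the summed FPKM of the pair was 1.56%, 6.84% and 1.70% in the S1 libraries, 84.3%, 42.6% and 63.7% in the S2 libraries, and 82.6%, 97.3% and 97.9% in the S3 libraries. It was the minor unigene in every S1 library and the major one in every S3 library, and the S2 libraries were divided. The sum of the pair was 2.57, 2.78 and 3.53 FPKM in S1, 2.73, 0.47 and 1.35 FPKM in S2, and 2.98, 10.08 and 11.61 FPKM in S3. S2 replicate 1 and S3 replicate 1 each had a sum within the S1 range with the unigenes in reversed proportion. A value for the identifier as a whole would hide the exchange in those libraries.

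**Figure D4:**
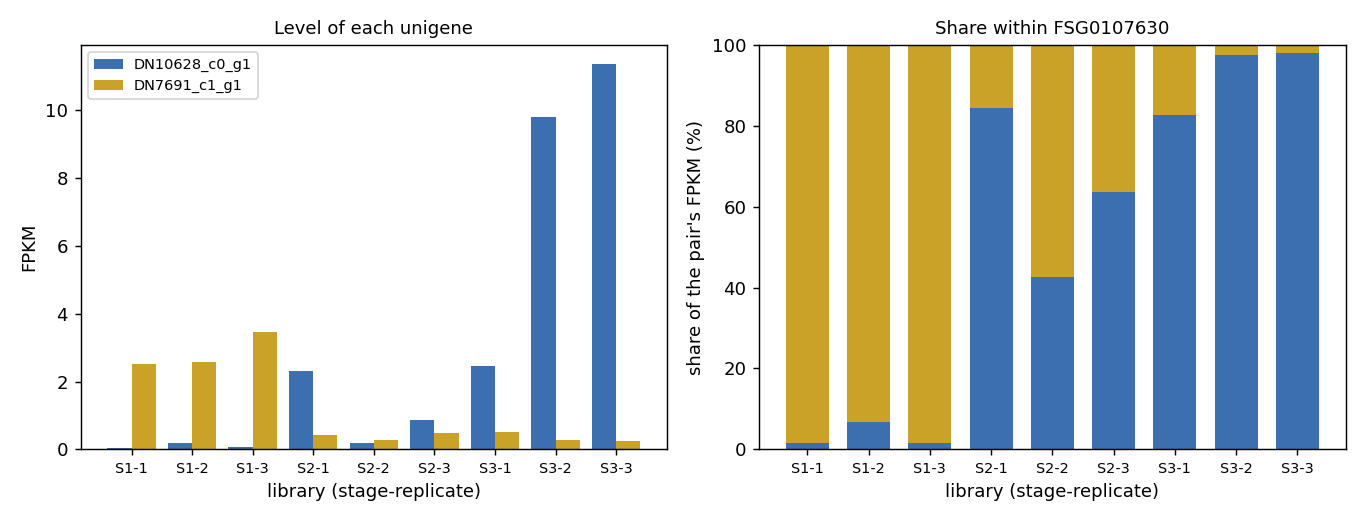
The 2 unigenes under FSG0107630 in each library (horizontal axis, stage and replicate), as FPKM (left) and as shares of their summed FPKM in percent (right). TRINITY_DN10628_c0_g1 holds at most 6.84% of the sum in S1, between 42.6% and 84.3% in S2, and at least 82.6% in S3.

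The difference of the pair, TRINITY_DN10628_c0_g1 minus TRINITY_DN7691_c1_g1 on the scale of log2(FPKM + 1), was -1.81 ± 0.25 at S1, 0.48 ± 0.66 at S2 and 2.53 ± 1.17 at S3 (SD, n = 3 each). No test is given, because this pair too was chosen for its courses. S2 and S3 did not overlap with S1, whereas the lowest difference of S3, 1.19, lay below the highest of S2, 1.21.

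Identifiers with several unigenes were few in the study's list of transcription factors, which gives 128 identifiers to 137 unigenes. Of these identifiers 8 had at least 2 unigenes, and FSG0107630 was the only one of the Dof part of the list. In 2 of the 8 the unigenes were called in opposite directions in S3 vs. S1, namely FSG0107630 and FSG0254550, whose 3 unigenes are listed under MYB and bZIP. The 2 bZIP unigenes of FSG0035590 were called in opposite directions in S2 vs. S1, and both were lower in S3 vs. S1. As 2 of the 8 identifiers span different families, an identifier shared in this list does not show that its unigenes come from a single gene. The sequences of the unigenes were not analysed here, and whether TRINITY_DN10628_c0_g1 and TRINITY_DN7691_c1_g1 are parts, alleles or copies of a gene was not tested. No other unigene has the number DN10628. Of the other unigenes numbered DN7691, which lie in another component, TRINITY_DN7691_c0_g2 had means of 11.5, 14.2 and 5.32 FPKM at S1, S2 and S3. It was lower in S3 than in S2 (limma adjusted p = 1.11e-04), whereas its S2 vs. S1 difference was 0.28 (adjusted p = 0.184). TRINITY_DN7691_c0_g1 stayed below 1.4 FPKM in all libraries.

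The other 10 listed Dof unigenes had no common course in storage. The study listed Dof unigenes that it found changed in some comparison, so they do not stand for the whole family. The list has 22 entries for 14 unigenes and was drawn up by the study from these same libraries, so its counts are not independent evidence of a change. Of the 14 unigenes, 4 were called higher and 5 lower in S2 vs. S1, 5 higher and 6 lower in S3 vs. S2, and 4 higher and 6 lower in S3 vs. S1. Of all unigenes tested, 7.24% were called higher and 10.7% lower in S2 vs. S1, 23.3% and 23.2% in S3 vs. S2, and 22.1% and 25.4% in S3 vs. S1. Over the 10 others the median difference of log2(FPKM + 1) was 0.45 in S2 vs. S1, -1.55 in S3 vs. S2 and -0.48 in S3 vs. S1, beside -0.03, 0.0 and -0.05 over all unigenes tested. The stage of the highest mean was S1 for 5, S2 for 5 and S3 for 4 of the 14.

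The late risers besides the unigenes described above were TRINITY_DN773_c0_g1 and TRINITY_DN1919_c0_g1. TRINITY_DN773_c0_g1 had means of 8.38 ± 0.580, 12.1 ± 9.22 and 62.6 ± 5.21 FPKM at S1, S2 and S3 (SD, n = 3 each), and S3 was higher than S2 by 2.49 on the log2 scale (SE 0.39, limma adjusted p = 0.001). TRINITY_DN1919_c0_g1 had means of 8.04 ± 1.14, 5.89 ± 2.82 and 47.5 ± 9.10 FPKM (SD, n = 3 each), with S3 higher than S2 by 2.87 (SE 0.27, limma adjusted p = 7.96e-05). Neither was called in S2 vs. S1 (limma adjusted p = 0.701 and 0.302). All 4 Dof unigenes with their highest mean at S3 were thus called in the second step and not in the first. They were grouped by that mean, so their call in the second step follows largely from the grouping and is a description. All 4 also had S2 replicate 1 as the highest of the S2 libraries, an observation made after the values were seen. This was not particular to them, as it also held for TRINITY_DN2629_c0_g2, TRINITY_DN6385_c0_g3 and TRINITY_DN1491_c0_g1, which were highest at S2. Among the 12 listed Dof unigenes with 3 different S2 values, S2 replicate 1 was the highest in 6 (50.0%). TRINITY_DN10329_c0_g2, with equal values in S2 replicates 2 and 3, is not among these 12. Among the 6092 unigenes higher in S3 than in S1 with 3 different S2 values, S2 replicate 1 was the highest in 20.9%.

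Dof unigenes with a transient high level at S2 had no counterpart among the 4 under the stages of the files. TRINITY_DN2629_c0_g2 had means of 14.6 ± 1.46, 59.2 ± 12.2 and 6.80 ± 3.98 FPKM at S1, S2 and S3 (SD, n = 3 each), and its difference was 1.94 in S2 vs. S1 (SE 0.31, limma adjusted p = 0.00449) and -3.04 in S3 vs. S2 (adjusted p = 1.21e-04). TRINITY_DN1658_c0_g1 had means of 19.0, 29.8 and 3.21 FPKM, and was likewise called higher in S2 (limma adjusted p = 0.0368) and then lower in S3 (adjusted p = 8.40e-06). TRINITY_DN21136_c0_g1 was listed at 0 in every S1 and S3 library and had 3.08, 7.17 and 8.92 FPKM in S2. TRINITY_DN1491_c0_g1 had its highest mean at S2 as well, with 56.75, 16.23 and 21.72 FPKM in the S2 libraries and without a call in S2 vs. S1 (limma adjusted p = 0.0847).

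Opposite courses under a shared DN number, here in different components, occurred once more among the listed Dof unigenes. TRINITY_DN6385_c0_g3 had means of 0.07 and 3.61 FPKM at S1 and S2 and was listed at 0 in every S3 library. TRINITY_DN6385_c1_g1, of another component, had means of 42.5, 17.5 and 38.1 FPKM at S1, S2 and S3. The first was called higher in S2 vs. S1 (limma adjusted p = 0.00114) and lower in S3 vs. S2 (adjusted p = 1.69e-04), and the second was called lower (adjusted p = 0.00172) and then higher (adjusted p = 7.52e-04). TRINITY_DN6385_c0_g3 passed the filter only through its S2 libraries, so its calls are a description. These unigenes have different identifiers. TRINITY_DN5001_c0_g1, the last of the list, had means of 39.1, 16.6 and 18.7 FPKM. It fell in S2 vs. S1 (limma adjusted p = 0.00641) with no call in S3 vs. S2 (adjusted p = 0.65). TRINITY_DN7691_c1_g1 had the same calls at these steps, but with means of 2.86, 0.397 and 0.347 FPKM it fell to a smaller fraction of its S1 level.

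**Figure D5:**
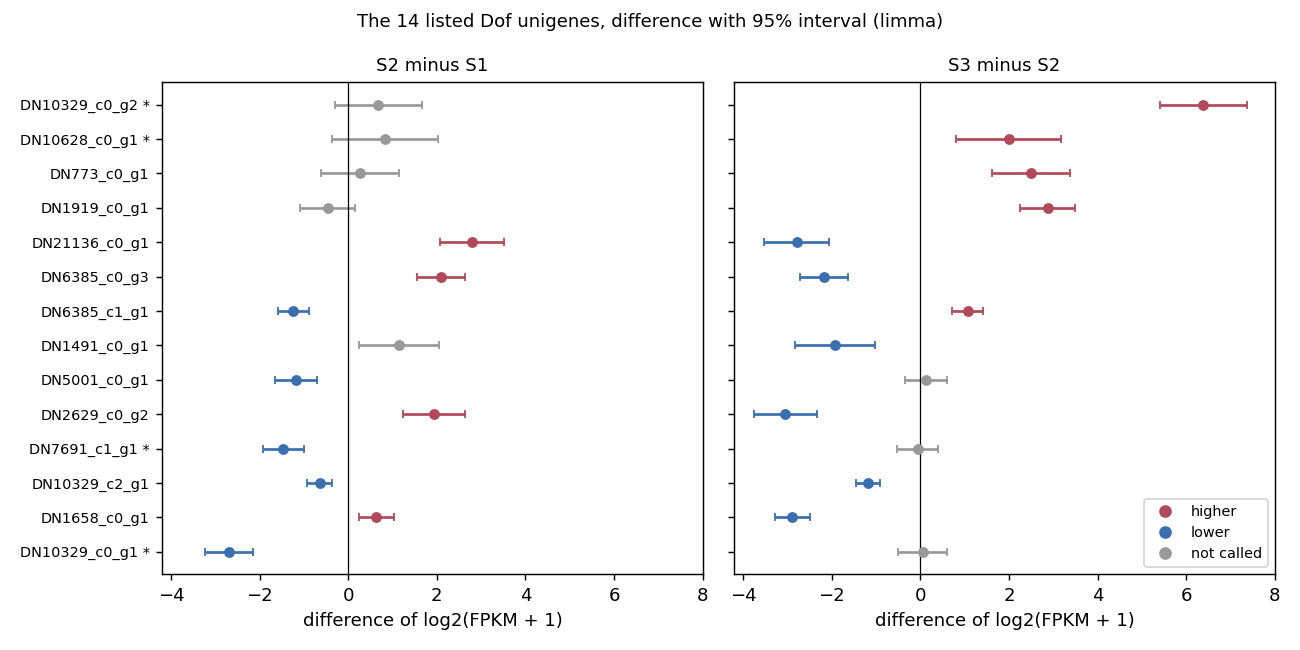
Difference of log2(FPKM + 1) between stages for the 14 listed Dof unigenes (rows, in the order of their S3 vs. S1 difference; asterisks mark the 4 described in full), S2 minus S1 on the left and S3 minus S2 on the right; points are limma estimates, bars 95% intervals, and colours give the call at an adjusted p under 0.05. TRINITY_DN10329_c0_g2 stands apart in S3 minus S2 at 6.39, and unigenes with positive and negative differences occur in both steps; values of unigenes listed at 0 throughout a stage (TRINITY_DN10329_c0_g1 in S2, TRINITY_DN21136_c0_g1 in S1 and S3, TRINITY_DN6385_c0_g3 in S3) depend on the pseudocount.

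The genes of the study's lists with the most similar profiles were sought among 164 unigenes of transcription factors and of structural genes of flavonoid synthesis. Likeness was the root mean square difference of log2(FPKM + 1) over the 9 libraries after each profile was centred on its own mean, and it is a description. This scale understates the change of low unigenes, so a near profile does not mean an equal fold. Nearest to TRINITY_DN10329_c0_g2 were the WRKY unigene FSG0220320 (difference 1.02) and SeFLS3 (1.02), named as a flavonol synthase, an enzyme that makes flavonols from dihydroflavonols. The MYB unigene FSG0250900 came next (1.14). They were also low until S2 and high at S3, as SeFLS3 had means of 0.32, 0.357 and 59.4 FPKM at S1, S2 and S3 and the WRKY unigene had 1.86, 2.30 and 84.1 FPKM. Of all unigenes tested 18 were nearer than the first of them.

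Nearest to TRINITY_DN10628_c0_g1 were the WRKY unigene FSG0068420 (0.40), the bZIP unigene FSG0058440 (0.41) and the MYB unigene FSG0186350 (0.43), with only 3 of all unigenes tested nearer than the first. These had far higher levels at S3, with means of 78.6 ± 22.8, 95.7 ± 14.2 and 107.2 ± 24.2 FPKM (SD, n = 3 each), against the 7.88 FPKM of TRINITY_DN10628_c0_g1. At S1 their means were 13.2, 15.7 and 9.71 FPKM, against 0.0967 FPKM, so their rise was smaller in proportion. The early-falling unigenes had other neighbours. TRINITY_DN7691_c1_g1 was nearest to Se4CL2 (0.19), then to the Dof unigene TRINITY_DN5001_c0_g1 (0.24) and the bHLH unigene FSG0034100 (0.33). TRINITY_DN10329_c0_g1 was nearest to Se4CL3 (0.54), SeC4H1 (0.56) and TRINITY_DN7691_c1_g1 (0.60) under the stages of the files. The names stand for 4-coumarate-CoA ligase and cinnamate 4-hydroxylase, early enzymes of the phenylpropanoid pathway, and SeC4H1 had means of 204.9, 56.5 and 34.5 FPKM at S1, S2 and S3. Se4CL2 had means of 32.6, 12.2 and 11.3 FPKM, a smaller fall in proportion than that of TRINITY_DN7691_c1_g1. For TRINITY_DN10329_c0_g1, 201 of the unigenes tested were nearer than Se4CL3, and for TRINITY_DN7691_c1_g1, 19 were nearer than Se4CL2.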

How the data were processed

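The authors deposited FPKM values of 57814 unigenes, in a file for each library, rounded to 2 decimals. The submitters' processing notes name fastp. Its version, the mapper, the tool that counted reads and the scaling behind FPKM were not given in the sources used here. No counts were used, so no counting interval was computed. Depth relative to S1 replicate 2 was estimated from the most frequent ratio of a unigene's values in the 2 libraries. Only values of 0.25 to 2.0 FPKM in both were used, and that ratio was taken to mark equal read numbers. In the file of S1 replicate 1, 8 unnamed columns were not used. Samples were grouped by stage as labelled.

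All 9 libraries were fitted together with limma 3.58.1 (lmFit, eBayes with trend, R 4.3.3) on log2(FPKM + 1) over 30201 unigenes with at least 1 FPKM in at least 3 libraries, and p values were adjusted by Benjamini-Hochberg over all of them. The study's methods name a T-test in general. Differences and shares within pairs of unigenes were computed per library, and an exact test planned for them is not reported because the pairs had been chosen for their courses (Python 3.11.15, numpy 2.4.6, pandas 2.3.3, scipy 1.17.1; plots with matplotlib 3.10.9). Dof identities, identifiers and families come from the study's lists, of which only names were used. The text names the 4 unigenes, the other 10 listed Dof unigenes, further unigenes with the same Trinity DN numbers reaching 1 FPKM, and the 3 listed genes nearest to each of the 4. These members, lists, pairs and tests were chosen with earlier results of these data known. Alternatives were other scalings, filters, pseudocounts, variance models, thresholds, fits of 6 libraries, a replicate block, each library left out, and S1 and S2 exchanged for TRINITY_DN10329_c0_g1. With no annotation used, fruit markers could not be checked, and pathway lists beyond those of the study were not formed.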

Additional observations from a re-analysis of the deposited data

How the results depend on the processing

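Of 297 alternative values of the differences of the 4 unigenes and of the counts of called Dof unigenes, 290 kept their direction and their side of the threshold, or a count within 1.5 times. Some of the 297 could not move. A stricter threshold cannot change an uncalled difference, and leaving out a library of the stage not compared leaves the size of a difference unchanged. The uncalled S3 vs. S2 difference of TRINITY_DN7691_c1_g1 turned to 0.053 after quantile normalization, against -0.06 without it. That of TRINITY_DN10329_c0_g1 was 0.0 without S3 replicate 2, which is counted among the 290. With S1 and S2 exchanged for TRINITY_DN10329_c0_g1, its differences of log2(FPKM + 1) became 2.69 in S2 vs. S1, -2.63 in S3 vs. S2 and 0.054 in S3 vs. S1, by construction. For TRINITY_DN10628_c0_g1 in S3 vs. S2, leaving out single libraries gave 1.64 to 2.57, and the call was lost without S3 replicate 2 (limma adjusted p = 0.0517, against 0.0133 with all libraries, and 0.00202 to 0.0517 over all alternatives). The difference of 1.99 also missed a threshold of 0.01. A filter at 5 FPKM left 9 of the 14 Dof unigenes and 1 of the 4 described (TRINITY_DN10329_c0_g2), and of those 5 were called in S2 vs. S1, where 9 were called otherwise (2 higher and 3 lower, against 4 and 5). Over all unigenes, leaving out an S2 library lowered the calls in S2 vs. S1 to 1174 to 1262 higher and 1590 to 1876 lower, against 2186 and 3220, with less data per stage. Replicate numbers are given to all stages and are not described as pairs of fruits. Deviations of same-numbered libraries from their stage means had correlations of -0.138 to 0.042, and a library correlated best with its own number in 3 of 18 cases. These values show no sign of pairing but cannot exclude it, since paired fruits may share little of such deviations. With a replicate block, 8 Dof unigenes were called in S2 vs. S1 and 10 in S3 vs. S1, against 9 and 10 without it, and TRINITY_DN10329_c0_g2 in S3 vs. S1 stayed at 7.07 (limma adjusted p = 1.63e-04). Depth limits the statements on values below 1 FPKM, which may be few reads.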
